A study of Mus musculus with 6 samples.

Results

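Gene expression was compared between 2 mouse hearts whose sample descriptions open with the letters eM and 4 whose descriptions open with eI, which together are all 6 hearts of the series. The eM hearts were wild-type 3 and EphB4 mutant 3, and the eI hearts were wild-type 1 and 2 and EphB4 mutant 1 and 2. In each description the letters begin the name of an array file, whose meaning no source used here gives. All 6 mice were of the strain labelled C57B6, and the tissue was labelled heart. No source used here gives the kind of EphB4 mutation, the age of the mice or the part of the heart taken. RNA of each heart was hybridised to 1 Affymetrix Mouse430_2 array, on which a gene is read by 1 or more probe sets. All levels below are log2 values, so a difference of 1 is a 2-fold difference, and a positive difference means a higher level in the eM hearts.

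EphB4, a receptor on the surface of endothelial cells, signals inside the cell by its kinase activity, and its ligand ephrin-B2 sits on the membrane of neighbouring cells. In the forming heart an inner lining, the endocardium, is separated from the muscle by a gel-like matrix called cardiac jelly, and the muscle grows inward as trabeculae before its outer wall thickens. As the heart muscle matures it turns from sugar to fatty acids as its fuel, gains the proteins of fast calcium cycling and oxygen storage, and becomes populated by vessels, fibroblasts and macrophages, while RNA-binding proteins of the early embryo are turned off. Some of the gene groups below concern these steps and others do not. Whether the letters go with a stage of the heart was not tested.

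The letters went with a difference across a broad set of genes. With genotype in the model, 1397 of 13572 genes tested, or 10.3%, passed the threshold of an adjusted p under 0.05 (limma, Benjamini-Hochberg). Of these, 607 genes (4.47%) were higher in the eM hearts and 790 (5.82%) were lower. The difference reached 2-fold in 231 genes (1.7%), of which 73 were higher and 158 lower. The called differences ran from -5.83 for Afp to 2.63 for Lin28a, and the smallest was 0.33 in size, whereas the median over all genes tested was -0.031. Over all 13572 genes tested, both eM hearts were above every eI heart in 2825 and below every eI heart in 3230. All 1397 called genes differed in the same direction among the wild-type and among the mutant hearts. The fit takes the mean of the differences in the 2 genotypes and counts the gap between them as error. A gene with opposite directions could not be called, so the shared direction follows from the calling. The difference was the larger in the mutants for 1076 of the 1397 called genes, with a median size of 0.70 in the mutants and 0.51 in the wild type. The filter on dim probe sets kept those with a mean level of 5.38 or more over the 6 hearts. In 47 of the 1397 called genes every heart of 1 group was under that floor, the eI group in 6 and the eM group in 41. Such a gene passed the filter through the other group, where it is high. Background was not measured, so for those named below (Lin28a, Tdo2, Dkk1, Afp, Kcne3, C1qc, Sln and Abca9) the difference is that of the measured values and no fold is given. A model with an interaction of letters and genotype called 0 genes (0%), with a smallest adjusted p of 0.31 in limma and 966 genes at an unadjusted p under 0.05.

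**Figure D1:**
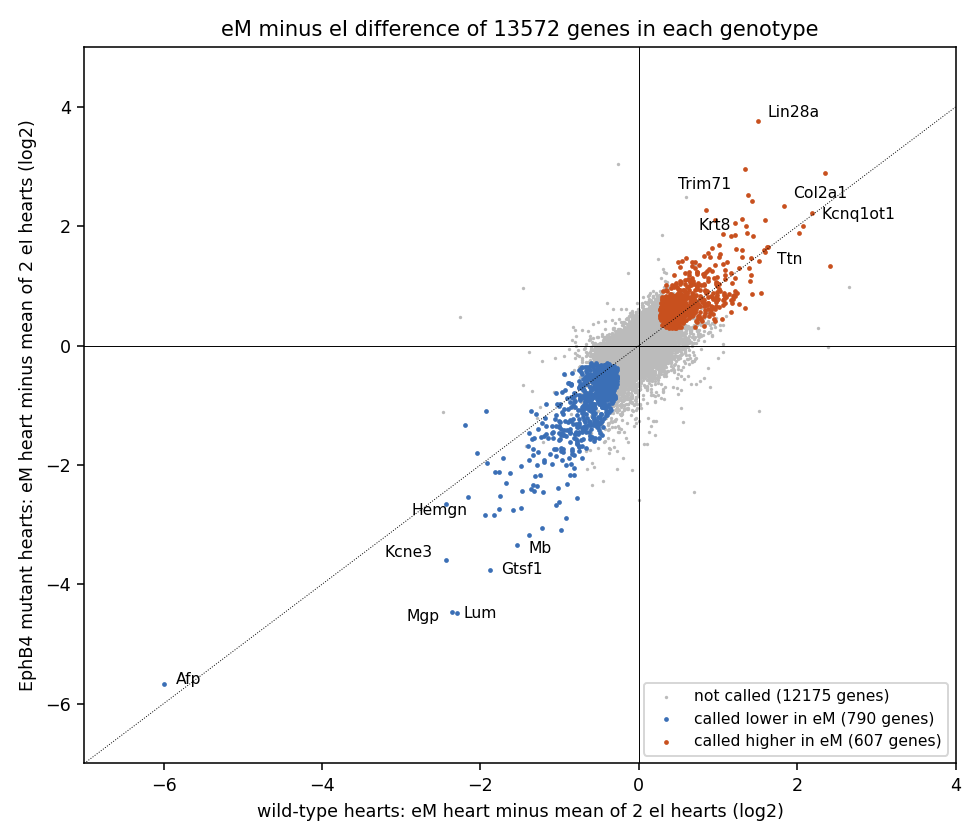
Each point is 1 of 13572 genes, placed by the log2 difference between the eM heart and the mean of the 2 eI hearts among wild-type hearts (x axis) and among EphB4 mutant hearts (y axis), with called genes in colour and the dotted line marking equal differences. All 1397 called genes are either below 0 on both axes or above 0 on both, which the model requires of a called gene. Afp lies at the lower left end and Lin28a at the top.

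These counts rest on few hearts, with 3 residual degrees of freedom in the fit. Leaving out mutant 3 left 0 genes called in limma, although 2079 genes had an unadjusted p under 0.05 and 1310 of the 1397 were among them. Leaving out mutant 2 left 2 genes, and leaving out mutant 1 left 158. Leaving out wild-type 3, the other eM heart, lost more of the 1397 calls than it kept and added others. Without mutant 3 no member of any gene list below was called. Without mutant 2 Kcnq1ot1 was the only member called. In each of these 4 fits all 1397 genes kept their direction. Where an eM heart was left out, the difference is that within the other genotype, so its direction was fixed by the calling. Adding the replicate number as a block, which separates hearts 1 and 2 of the eI groups, left 575 genes. Of all 13572 genes tested, 4125 had an unadjusted p under 0.05 in the full limma fit, 3445 with the block and 2958 without mutant 1. Counts of list members at that level, given below, are to be read beside these. The eM hearts are both numbered 3, so the letters and that number cannot be told apart. The p-values measure the spread between these 6 hearts.

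Several technical and biological signs differed along with the letters. The signal of beta-actin toward its 3' end exceeded that toward its 5' end by 0.51 and 0.77 in the eM hearts and by 0.28 to 0.41 in the eI hearts, a gap that widens as RNA shortens. The same gap of pyruvate carboxylase was 2.28 and 2.29 against 1.77 to 2.04, and that of GAPDH 0.03 and 0.12 against -0.10 to 0.02. That of the transferrin receptor was 2.0 and 2.02, within the eI range of 1.85 to 2.20. The probe set for 18S ribosomal RNA read 11.17 and 10.48 in the eM hearts and 9.80 to 10.16 in the eI hearts. Mutant 1 and mutant 3 carried Xist, the RNA of the inactive X chromosome, at 6.73 and 6.78 and the Y-linked Eif2s3y at 9.56 and 9.58, whereas the other 4 hearts had Xist at 11.51 to 12.33 and Eif2s3y at 3.49 to 3.79. By these genes 1 of 4 eI hearts and 1 of 2 eM hearts were male, and with the Xist level as a covariate 183 genes were called. The part of RNA length, 18S signal and sex in the differences below was not tested further. Markers of heart muscle were high in every heart: the mean over 37 genes of the contractile unit ran from 12.18 to 12.32.

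Genes that span more of the genome were called higher more often. The genes tested were put in 5 groups of equal size by their span in RefSeq's GRCm38.p6 annotation. In the group of shortest span, up to 7.2 kb, 1.77% were called higher, and the share was 2.36%, 3.1%, 5.02% and 10% in the successive groups. The share called lower showed no such rise, with 6.35% in the group of shortest span and 5.06% in that of longest span. The median span was 57.5 kb for genes called higher, 18 kb for genes called lower and 21.6 kb for the others. Span counts introns and is not the length of the mature RNA.

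**Figure D2:**
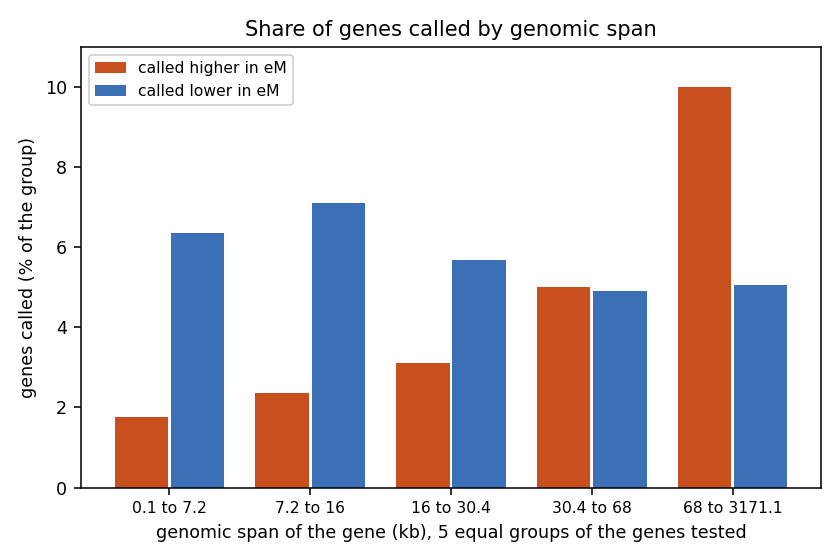
Bars show the percentage of genes called higher (orange) or lower (blue) in the eM hearts within each of 5 equal groups of the genes tested, ordered by genomic span in kb. The share called higher rises from 1.77% to 10%, and the share called lower stays between 4.91% and 7.12%.

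Regulators that are active in early embryos were higher in the eM hearts. Of 21 members tested, 10 were called higher and 0 lower, with a median difference of 0.57. Counts for this list and the later ones are to be read beside 4.47% of all genes called higher and 5.82% lower. In RNA of whole hearts, fewer cells of a type and less RNA per cell cannot be told apart, here and in the groups that follow. Lin28a, an RNA-binding protein that blocks the maturation of let-7 microRNAs, had levels of 4.59 and 4.46 in the wild-type eI hearts, 5.08 and 4.56 in the mutant eI hearts, 6.02 in the wild-type eM heart and 8.58 in the mutant eM heart. The mutant eM heart stood highest and the wild-type eM heart next, above all eI hearts, which were all under the floor of the filter. The measured difference was 2.63 ± 0.48 (SE) (adjusted p = 0.029), and the gene passed the filter only through the eM hearts. Trim71, a ubiquitin ligase and let-7 target, had levels of 7.34 and 7.63 in the wild-type eI hearts, 7.24 and 7.0 in the mutant eI hearts, 8.87 in the wild-type eM heart and 9.65 in the mutant eM heart. Its 2 groups did not overlap, and the difference was 1.96 ± 0.26 (SE) (adjusted p = 0.0165).

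Further members had the same order, with the mutant eM heart above the wild-type eM heart and both above the eI hearts. Prtg, which encodes the embryonic surface protein protogenin, read 8.13 to 8.36 in the 4 eI hearts, 9.56 in the wild-type eM heart and 10.26 in the mutant eM heart, a difference of 1.71 ± 0.19 (SE). Arid3b, a DNA-binding protein, read 6.71 to 6.93 in the 4 eI hearts, 8.09 in the wild-type eM heart and 8.87 in the mutant eM heart, a difference of 1.63 ± 0.19 (SE). Among RNA-binding proteins that stabilise growth-related messages, Igf2bp1 was 1.77-fold higher in the eM hearts (adjusted p = 0.0198) and Igf2bp3 1.66-fold (adjusted p = 0.0224), with 5 of the 6 probe sets of Igf2bp3 higher and the other at -0.61. Chosen after their values were seen, the stem cell factor Sall4 was 2.89-fold and the chromatin protein Hmga2 2.04-fold higher. The replicate block kept 8 of the 10 calls, losing Mycn (adjusted p = 0.0531), a growth-promoting transcription factor at a difference of 0.61 with 1 of its 3 probe sets at -0.33, and Nr6a1, an embryonic nuclear receptor named after its value was seen (adjusted p = 0.0643). All 10 were called without wild-type 3 as well, and 2 without mutant 1. At an unadjusted p under 0.05, 12 members were higher in the full fit and 12 without mutant 3.

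**Figure D3:**
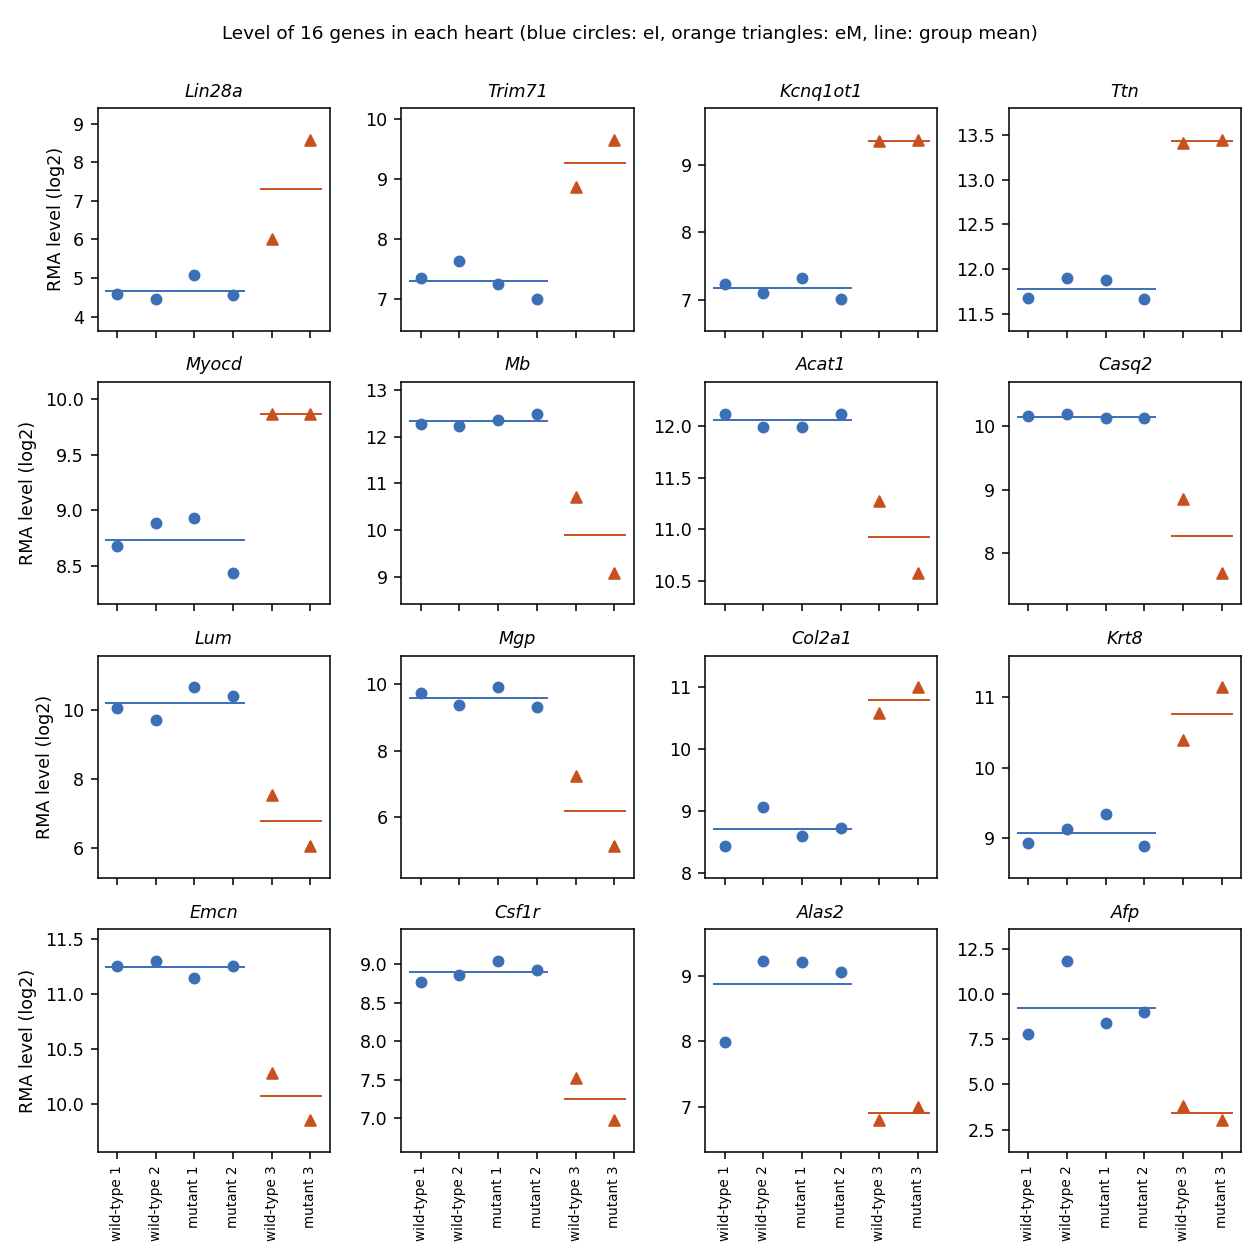
Each panel plots the log2 level of 1 gene in the 6 hearts, with blue circles for the 4 eI hearts, orange triangles for the 2 eM hearts and a line at each group's mean. In all 16 panels, each of a called gene, both eM hearts lie on 1 side of the eI hearts. Among all 13572 genes tested this holds for 2825 with the eM hearts above and 3230 with them below. The eI hearts differ most among themselves for Afp and Alas2.

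Genes of the contractile unit of heart muscle divided by gene, with 4 of 37 called higher, 3 called lower and a median of -0.04. Ttn encodes titin, the spring protein that spans the sarcomere. Its levels were 11.68 and 11.90 in the wild-type eI hearts, 11.88 and 11.67 in the mutant eI hearts, 13.41 in the wild-type eM heart and 13.44 in the mutant eM heart, and the difference was 1.64 ± 0.11 (SE) (adjusted p = 0.0131). Both eM hearts stood above every eI heart by more than the spread of either group, and all 5 tested probe sets of Ttn were higher, by 1.42 to 3.10. Ttn spans 279 kb of the genome. Myh6, the heavy chain of alpha-myosin, read 13 to 13.19 in the 4 eI hearts, 13.76 in the wild-type eM heart and 13.85 in the mutant eM heart, a difference of 0.67 ± 0.09 (SE) (adjusted p = 0.0168). Xirp1, an actin-binding repeat protein, was 1.61-fold higher.

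Myoz2, a protein of the Z-disc that binds calcineurin, had the opposite direction. It read 10.63 to 10.85 in the 4 eI hearts, 9.75 in the wild-type eM heart and 8.77 in the mutant eM heart, a difference of -1.46 ± 0.23 (SE) (adjusted p = 0.0231), with the mutant eM heart the lowest. Nrap, an anchoring protein of assembling myofibrils, was 1.64-fold lower. The most abundant sarcomere messages, named here after their values were seen, lay close together: the eM minus eI difference was -0.04 for Myh7, 0.05 for Actc1 and -0.19 for Tnnt2, none of them called. The replicate block left 3 higher and 3 lower calls, the fit without wild-type 3 left 2 and 4, and the fit without mutant 1 left 1 and 0.

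Calcium handling genes were also split, with 5 of 26 called higher, 5 called lower and a median of -0.01. Casq2, the calcium store protein of the sarcoplasmic reticulum, read 10.16 and 10.20 in the wild-type eI hearts, 10.13 and 10.13 in the mutant eI hearts, 8.86 in the wild-type eM heart and 7.70 in the mutant eM heart. The eI hearts were nearly level, and both eM hearts fell below them, giving a difference of -1.88 ± 0.24 (SE) (adjusted p = 0.016). The release channel Ryr2 went the other way, at 9.84 to 9.96 in the 4 eI hearts, 10.71 in the wild-type eM heart and 10.60 in the mutant eM heart, with a difference of 0.76 ± 0.08 (SE). The plasma membrane calcium pump Atp2b1 was 1.81-fold higher and the calcium channel subunit Cacna2d2 2.44-fold higher. Named after their values were seen, 2 small inhibitors of the calcium pump were lower: the difference was -1.30 for sarcolipin (Sln), whose eM levels were under the floor of the filter, and -0.75 for phospholamban (Pln). Both calls were lost with the replicate block, at adjusted p = 0.0597 and 0.078. With the block 5 genes were called higher and 1 lower, without wild-type 3 4 and 4, and without mutant 1 3 and 1.

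Among channels of the muscle membrane, 1 of 19 was called higher and 3 lower, and the block left 0 calls in limma, with 3 higher and 7 lower at an unadjusted p under 0.05. Kcne1, a subunit of the slow potassium current, read 9.42 to 10.09 in the 4 eI hearts, 8.84 in the wild-type eM heart and 7.80 in the mutant eM heart, a difference of -1.50 ± 0.31 (SE) (adjusted p = 0.038, and 0.0589 with the block). Kcne3, a related subunit outside that list and among the 8 genes with the largest decreases, was at 6.07 and 6.70 in the wild-type eI hearts, 6.88 and 6.60 in the mutant eI hearts, 3.95 in the wild-type eM heart and 3.14 in the mutant eM heart. The groups did not overlap, and the measured difference was -3.01 ± 0.30 (SE), with both eM hearts under the floor of the filter. Junction genes of the intercalated disc had 1 call among 20, the gap junction protein Gja1 at -0.55 (adjusted p = 0.0301, and 0.061 with the block).

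Cardiac transcription factors had 5 of 28 members called higher and 0 lower, with a median of 0.15. Myocd, the co-activator of serum response factor in heart and smooth muscle, read 8.68 and 8.89 in the wild-type eI hearts, 8.93 and 8.44 in the mutant eI hearts, 9.87 in the wild-type eM heart and 9.87 in the mutant eM heart. Both eM hearts were at the same level, above all eI hearts, with a difference of 1.13 ± 0.15 (SE) (adjusted p = 0.0171). Hey1, a repressor downstream of Notch that marks the atria, was 1.63-fold higher. Tbx5 (0.50), Gata5 (0.51) and Gata4 (0.57) were called higher in the main model but not with the replicate block, where the adjusted p was 0.0659, 0.059 and 0.0718. Nkx2-5, a founding factor of the heart field named after its value was seen, differed by 0.04 and was not called. The block left 2 calls, the fit without mutant 1 left 1, and the fit without wild-type 3 left 3 higher and 1 lower.

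Genes that mark maturing heart muscle were lower. Of 31 tested, 10 were called lower and 0 higher, and the median difference was -0.41. Myoglobin (Mb), the oxygen store of muscle, had levels of 12.28 and 12.22 in the wild-type eI hearts, 12.36 and 12.49 in the mutant eI hearts, 10.70 in the wild-type eM heart and 9.09 in the mutant eM heart. The eI hearts were tightly grouped, the wild-type eM heart was below them and the mutant eM heart lower still, and the difference was -2.44 ± 0.37 (SE) (adjusted p = 0.0211). The other, dimmer tested probe set of Mb differed by 0.04. Ckmt2, the mitochondrial creatine kinase of muscle, read 7.47 to 7.98 in the 4 eI hearts, 6.75 in the wild-type eM heart and 6.24 in the mutant eM heart, a difference of -1.23 ± 0.13 (SE). The muscle creatine kinase Ckm was 2.26-fold lower, the small heat shock protein Hspb6 2.26-fold lower and the fatty acid transporter Cd36 1.87-fold lower. With the block there were 6 calls and without mutant 1 2. Without wild-type 3 some of the 10 calls were lost, such as Lpl, and other members were called, such as Corin. At an unadjusted p under 0.05, 20 members were lower in the full fit and 10 without mutant 3.

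Among chamber genes and natriuretic peptides, 2 of 24 were called higher and 4 lower. Cited1, a transcriptional co-regulator of the embryonic ventricle, read 13.34 to 13.64 in the 4 eI hearts, 12.74 in the wild-type eM heart and 12.13 in the mutant eM heart, a difference of -0.99 ± 0.14 (SE) (adjusted p = 0.018). Nppa and Nppb, the natriuretic peptides that mark trabecular and atrial muscle and that were named after their values were seen, differed by -0.25 and -0.14 and were not called. The block left 0 higher and 2 lower calls.

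Fatty acid oxidation was the list with the largest share of calls. Of 26 genes tested, 19 were called lower and 0 higher, and the median difference was -0.54. Acat1, the last thiolase of the pathway, had levels of 12.12 and 11.99 in the wild-type eI hearts, 11.99 and 12.12 in the mutant eI hearts, 11.27 in the wild-type eM heart and 10.58 in the mutant eM heart. Both eM hearts were below the closely grouped eI hearts, and the difference was -1.13 ± 0.16 (SE) (adjusted p = 0.0188). Cpt1a, the carnitine transferase that admits fatty acids to mitochondria, read 8.70 and 8.60 in the wild-type eI hearts, 8.79 and 8.60 in the mutant eI hearts, 7.86 in the wild-type eM heart and 7.39 in the mutant eM heart, a difference of -1.05 ± 0.14 (SE) (adjusted p = 0.0165). The dehydrogenases for long and very long chains, Acadl and Acadvl, were 1.93-fold and 1.71-fold lower.

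Cd36, given above among the maturation genes, is also a called member, and the other 14 differed by between -0.68 (Lpl) and -0.40 (Etfa, adjusted p = 0.1 with the block). The 19 called genes include the lipase Lpl, the medium-chain dehydrogenase Acadm and the binding protein Fabp3, chosen after their values were seen, which differed by -0.68, -0.54 and -0.56. None of these 3 was called with the replicate block, with adjusted p of 0.0509, 0.0548 and 0.0674. The block left 5 calls, the fit without wild-type 3 left 11, and the fit without mutant 1 left 1. At an unadjusted p under 0.05, 23 members were lower in the full fit and 19 without mutant 3. Relative to the eI mean, the mean of the list was -0.40 in the wild-type eM heart and -0.65 in the mutant eM heart, and between -0.04 and 0.06 in the eI hearts.

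Other steps of energy metabolism had fewer calls. In the citric acid cycle and its supply 6 of 24 genes were called lower and 0 higher, with a median of -0.24. Pdk4, a kinase that inhibits pyruvate dehydrogenase, had a difference of -0.98 (limma adjusted p = 0.0207). The mitochondrial isocitrate dehydrogenase Idh2 had a difference of -0.75 (adjusted p = 0.0171), although its other probe set differed by 0.21. Of 55 subunits of oxidative phosphorylation 4 (7.27%, beside 5.82% of all genes) were called lower and 0 higher. The median was -0.17, and the complex I protein Ndufa12 led at -0.71. Glycolysis had 2 of 22 genes higher and 3 lower, with a median of 0.02. The glucose transporter Slc2a1 was higher by 0.53 and pyruvate kinase Pkm by 0.46, but the block ended both calls (adjusted p = 0.0703 and 0.0905). With the block the calls were 2 lower in the cycle, 1 lower in oxidative phosphorylation and 1 lower in glycolysis. The fit without mutant 1 called 0 in all 3 lists in limma, with 8, 12 and 3 genes lower and, in glycolysis, 4 higher at an unadjusted p under 0.05.

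**Figure D4:**
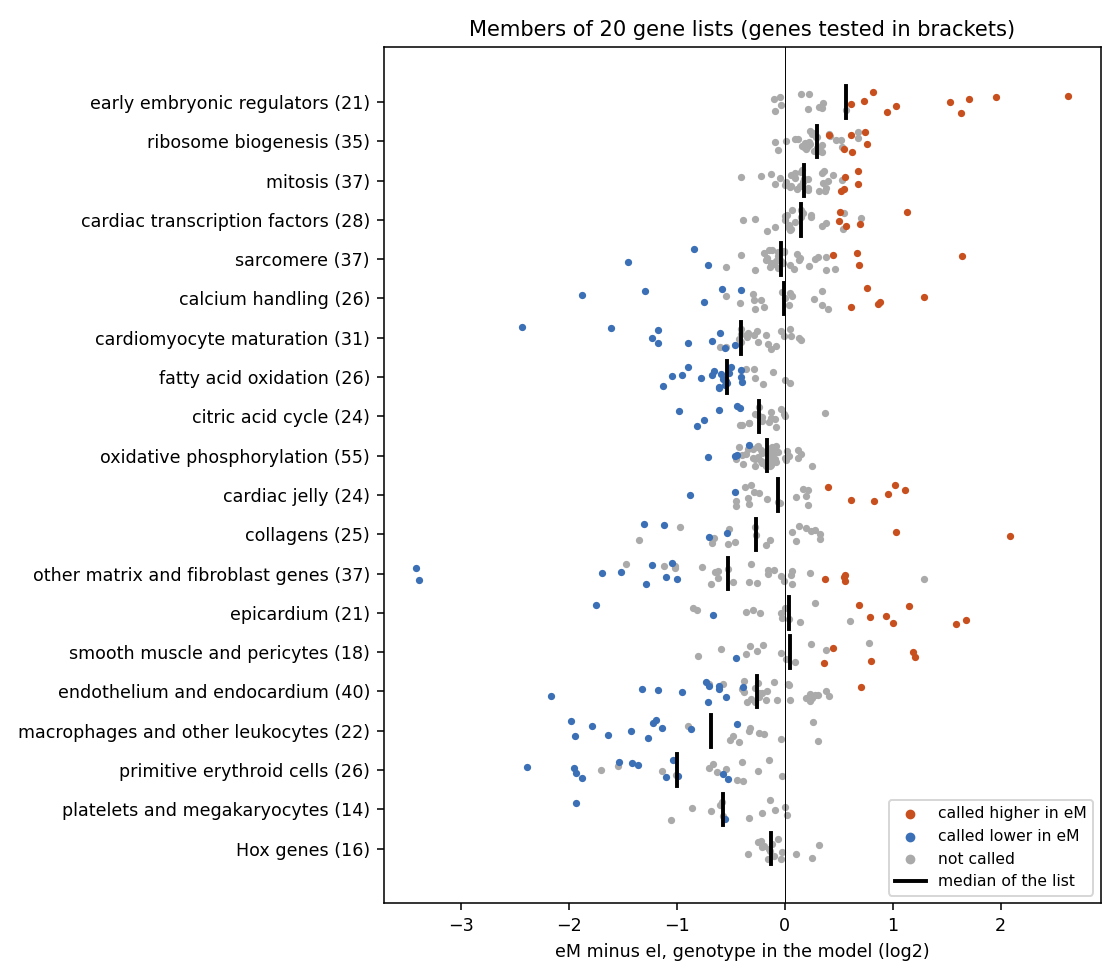
Each dot is 1 gene of a list, placed by its eM minus eI log2 difference with genotype in the model, coloured where called, and the black bar is the median of the list. The called genes of fatty acid oxidation and of the blood cell lists all lie left of 0, those of early embryonic regulators all lie right of 0, and the sarcomere, calcium and matrix lists hold both.

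Matrix genes outside the collagens had 9 of 37 members called lower and 4 higher, with a median of -0.53. Lumican (Lum), a proteoglycan that spaces collagen fibrils, read 10.05 and 9.70 in the wild-type eI hearts, 10.64 and 10.38 in the mutant eI hearts, 7.51 in the wild-type eM heart and 6.04 in the mutant eM heart. The eM hearts were below all eI hearts, and the mutant eM heart was the lowest, for a difference of -3.42 ± 0.44 (SE) (adjusted p = 0.016), a 10.7-fold lower level. Matrix Gla protein (Mgp), an inhibitor of calcification, read 9.74 and 9.36 in the wild-type eI hearts, 9.90 and 9.31 in the mutant eI hearts, 7.24 in the wild-type eM heart and 5.12 in the mutant eM heart. Its difference was -3.39 ± 0.48 (SE), 10.5-fold lower, with the mutant eM heart under the floor of the filter. The collagen cross-linking enzyme Lox was 3.26-fold lower and the proteoglycan biglycan (Bgn) 2.45-fold lower.

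The 4 matrix genes called higher were chosen here after their values were seen: fibronectin Fn1 (0.56), the fibrillin Fbn2 (0.56), Fbln1 (0.55) and Igfbp5 (0.37). All 4 calls were lost with the block, at adjusted p of 0.0557, 0.0576, 0.0643 and 0.0906, whereas 8 of the 9 lower calls remained. Without wild-type 3, 14 were called lower and 0 higher, and without mutant 1 4 and 0. Relative to the eI mean, the list mean was -0.37 in the wild-type eM heart and -0.83 in the mutant eM heart.

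Collagens had 2 of 25 members called higher and 4 lower. Col2a1, the collagen of cartilage that is also made in embryonic heart valves, read 8.43 and 9.07 in the wild-type eI hearts, 8.60 and 8.72 in the mutant eI hearts, 10.58 in the wild-type eM heart and 11 in the mutant eM heart. It was 4.25-fold higher, with a difference of 2.09 ± 0.20 (SE) (adjusted p = 0.0131). The fibrillar chain Col1a2 went the other way, at 11.63 to 12.08 in the 4 eI hearts, 11.08 in the wild-type eM heart and 10.51 in the mutant eM heart, with a difference of -1.12 ± 0.20 (SE), and the microfibril chain Col6a3 had a difference of -1.31. Relative to the eI mean, the mean of all 25 collagens was 0.01 in the wild-type eM heart and -0.40 in the mutant eM heart, so the list's overall level was lower in 1 of the 2 eM hearts. Without wild-type 3 the calls were 1 higher and 9 lower, with the block 1 and 2, and without mutant 1 2 and 1.

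Components of cardiac jelly were divided by gene, with 6 of 24 called higher and 2 lower. Over all 24 the median was -0.06, with 11 above 0 and 13 below, and 7 were higher and 7 lower at an unadjusted p under 0.05. Versican (Vcan), the main proteoglycan of the jelly, read 11.77 and 11.79 in the wild-type eI hearts, 12.01 and 11.78 in the mutant eI hearts, 12.79 in the wild-type eM heart and 12.54 in the mutant eM heart, a difference of 0.83 ± 0.12 (SE) (adjusted p = 0.0188). Perlecan (Hspg2), a basement membrane proteoglycan, was 1.95-fold higher (adjusted p = 0.0137). Has2, which makes the hyaluronan that swells the jelly, read 7.25 to 7.78 in the 4 eI hearts, 8.52 in the wild-type eM heart and 8.56 in the mutant eM heart, a difference of 1.02 ± 0.19 (SE) (adjusted p = 0.0303, and 0.0522 with the block). Hapln1, which links hyaluronan to versican, was 2.15-fold higher. The block left 3 higher and 0 lower calls and the fit without mutant 1 2 and 0. Without wild-type 3 there were 0 higher and 1 lower, with 7 and 8 at an unadjusted p under 0.05 in limma.

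Genes of the cushions that form the valves had 4 of 21 called higher and 0 lower, with a median of -0.11. These were Twist2 (0.59), Sox9 (0.72, with its other probe set at -0.31), Msx2 (0.81) and Msx1 (0.53), all transcription factors of mesenchyme. The block ended the calls of Msx1 and Msx2, at adjusted p of 0.0659 and 0.0518. Without wild-type 3 there were 3 higher and 2 lower calls, and without mutant 1 0 of either, with 8 higher and 2 lower at an unadjusted p under 0.05 in limma.

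The outer layer of the heart, the epicardium, was read by 21 genes, of which 7 were called higher and 2 lower. Krt8, a keratin of simple epithelia, had levels of 8.94 and 9.13 in the wild-type eI hearts, 9.35 and 8.89 in the mutant eI hearts, 10.39 in the wild-type eM heart and 11.13 in the mutant eM heart. Both eM hearts exceeded all eI hearts, by a difference of 1.68 ± 0.20 (SE) (adjusted p = 0.0142), and all 3 probe sets were higher, by 1.63 to 1.74. Aldh1a1, an enzyme of retinoic acid synthesis, read 7.59 to 8.43 in the 4 eI hearts, 9.55 in the wild-type eM heart and 9.61 in the mutant eM heart, a difference of 1.59 ± 0.23 (SE). Wt1, the transcription factor that defines the epicardium, was 1.92-fold higher (adjusted p = 0.016).

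Cav1, the coat protein of caveolae, was lower, at 9.25 to 9.91 in the 4 eI hearts, 8.08 in the wild-type eM heart and 7.85 in the mutant eM heart, a difference of -1.75 ± 0.21 (SE). It is also abundant in endothelium. Mesothelin (Msln), named after its value was seen, was lower too, by -0.67 (limma adjusted p = 0.0416 with the block). The median over the 21 epicardial genes was 0.04, with 12 above 0 and 9 below. This median was 0.37 among wild-type hearts and -0.21 among mutants, so no single direction held for the list. The mutant eI hearts were already above the wild-type eI hearts in the list's mean, at 0.25 and 0.15 relative to the eI mean against -0.14 and -0.25. The block left 6 higher and 2 lower calls, the fit without wild-type 3 2 and 4, and the fit without mutant 1 2 and 1.

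Smooth muscle and pericyte genes had 5 of 18 called higher and 1 lower, with a median of 0.05. Tagln, the actin-binding protein SM22, read 11.75 to 12.19 in the 4 eI hearts, 12.99 in the wild-type eM heart and 13.33 in the mutant eM heart, a difference of 1.19 ± 0.15 (SE) (adjusted p = 0.016). Rgs5, a marker of pericytes, was 2.32-fold higher and Cspg4, the pericyte proteoglycan NG2, 1.74-fold higher. The aminopeptidase Anpep was the gene called lower, at -0.45 (adjusted p = 0.0263, and 0.0643 with the block). The block left 3 higher and 0 lower calls, the fit without wild-type 3 1 and 2, and the fit without mutant 1 1 and 0.

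Endothelial and endocardial genes were lower in part. Of 40 tested, 11 were called lower and 1 higher, with a median of -0.26. Emcn, the sialomucin endomucin of venous and endocardial cells, read 11.26 and 11.30 in the wild-type eI hearts, 11.15 and 11.26 in the mutant eI hearts, 10.28 in the wild-type eM heart and 9.85 in the mutant eM heart. The eI hearts were nearly level and both eM hearts lay below them, for a difference of -1.18 ± 0.11 (SE) (adjusted p = 0.0131). Aplnr, the apelin receptor, read 9.72 to 10.12 in the 4 eI hearts, 8.52 in the wild-type eM heart and 8.55 in the mutant eM heart, a difference of -1.33 ± 0.12 (SE). The secreted vessel protein Egfl7 was 1.66-fold, the junction protein Esam 1.64-fold and the guidance receptor Robo4 1.63-fold lower. Defining genes of the lineage, named after their values were seen, were not called: the difference was 0.28 for Kdr, -0.24 for Cdh5 and 0.41 for Pecam1, so they did not share a direction. The block left 7 lower and 0 higher calls, the fit without wild-type 3 5, and the fit without mutant 1 2.

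Genes of red cells were lower. The list is named for primitive erythroid cells, the first red cells of the embryo. It also holds adult globins and general red cell genes, so it does not mark primitive cells alone. Of 26 tested, 12 were called lower and 0 higher, and the median difference was -1.0. Alas2, the first enzyme of haem synthesis in red cells, had levels of 7.99 and 9.22 in the wild-type eI hearts, 9.20 and 9.05 in the mutant eI hearts, 6.80 in the wild-type eM heart and 7.0 in the mutant eM heart. Wild-type 1 was the lowest of the eI hearts, about 1 log2 unit under the other 3, and both eM hearts were lower still, for a difference of -1.96 ± 0.32 (SE) (adjusted p = 0.0237). The Rh antigen gene Rhd read 8.31 and 9.46 in the wild-type eI hearts, 9.13 and 8.93 in the mutant eI hearts, 7.26 in the wild-type eM heart and 6.88 in the mutant eM heart, a difference of -1.88 ± 0.31 (SE) (adjusted p = 0.0243). The embryonic globin Hba-x was at 13.73 to 14.45 in the 4 eI hearts, 13.16 in the wild-type eM heart and 13.11 in the mutant eM heart, a 2.14-fold difference. The order was the same in all 3, with the eM hearts lowest and wild-type 1 lowest of the eI hearts.

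Hemgn, a nuclear protein of blood progenitors, showed the largest decrease of the list, -2.39 ± 0.51 (SE), at 8.68 to 10.58 in the 4 eI hearts, 7.69 in the wild-type eM heart and 7.24 in the mutant eM heart. Ank1, the ankyrin of the red cell membrane, read 9.29 to 9.49 in the 4 eI hearts, 8.48 in the wild-type eM heart and 8.32 in the mutant eM heart, a difference of -0.99 ± 0.08 (SE), and differed from the others in that wild-type 1 was not low. Epor, the erythropoietin receptor, was 1.44-fold lower. The most abundant embryonic beta-globins, named after their values were seen, were not called. Hbb-y differed by -0.44 (limma adjusted p = 0.0891) and Hbb-bh1 by -0.63 (limma adjusted p = 0.0881), both at levels over 13 in every heart. Of the adult globins, also named after their values were seen, Hbb-b2 differed by -0.67 and Hba-a2 by -0.55. Their limma adjusted p with the block was 0.0441 and 0.148. The block left 9 calls, and the fits without wild-type 3 and without mutant 1 left 1 each. At an unadjusted p under 0.05, 23 members were lower in the full fit and 8 without mutant 3.

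The promoters of these genes were searched for the letters AGATAA, or TTATCT on the opposite strand, through which the transcription factor Gata1 is known to act. Gata1 was itself called lower, by -1.04, and its part in the differences of the other genes was not tested. Promoters, from 250 bases before to 50 after the start, were at hand for 7 of the 12 members called lower. These letters lay in 5 of the 7 (71.4%), in 7 of 21 promoters of members tested (33.3%) and in 939 of 13921 promoters of all genes tested (6.7%). A match is a description of the sequence, not a binding site. The 4 windows below, those of the 5 that end before the start, are 60 bases each from RefSeq's GRCm38.p6, written 5' to 3' on the strand of the gene, with the motif in capitals. They lie at chrX:150547304-150547363 (plus strand) for Alas2, chr9:21963598-21963657 (minus strand) for Epor, chr4:134864466-134864525 (plus strand) for Rhd and chr17:36869384-36869443 (plus strand) for Trim10, and the motif begins 86, 54, 43 and 163 bases before the start.
Alas2: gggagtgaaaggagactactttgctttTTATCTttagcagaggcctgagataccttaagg
Epor: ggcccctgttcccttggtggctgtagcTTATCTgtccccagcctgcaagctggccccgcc
Rhd: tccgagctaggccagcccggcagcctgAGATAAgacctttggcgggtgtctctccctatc
Trim10: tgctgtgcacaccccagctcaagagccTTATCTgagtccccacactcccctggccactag
Trim10, a ubiquitin ligase of maturing red cells, and Gata1 were chosen after their values were seen. The Trim10 difference was -1.42 ± 0.31 (SE), with levels of 7.51 to 8.75 in the 4 eI hearts, 6.75 in the wild-type eM heart and 7.05 in the mutant eM heart. The call of Gata1 was lost with the block (adjusted p = 0.0531). For comparison, the letters AAGGTCA or TGACCTT, bound by estrogen-related receptors, were in 1 of 14 promoters of fatty acid oxidation genes called lower (7.1%) and in 3.4% of all promoters.

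Handling of haem and iron, a list that shares Alas2 and Fech (adjusted p = 0.0636 with the block) with the erythroid list, had 5 of 18 genes lower and 0 higher. Alas1, the form of the enzyme used outside red cells, had a difference of -0.59, and the ferritin heavy chain Fth1 one of -0.59 (adjusted p = 0.0279, and 0.0578 with the block). Platelet and megakaryocyte genes had 2 of 14 called lower, led by the platelet chemokine Ppbp at 8.22 to 8.96 in the 4 eI hearts, 6.67 in the wild-type eM heart and 6.58 in the mutant eM heart, a difference of -1.94 ± 0.23 (SE) (adjusted p = 0.015). With the block the lower calls were 2 of 18 and 1 of 14. Without wild-type 3 they were 3 and 0, the latter with 6 lower at an unadjusted p under 0.05 in limma.

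Macrophage and leukocyte genes were lower. Of 22 tested, 11 were called lower and 0 higher, with a median of -0.69. Csf1r, the receptor for the growth factor on which macrophages depend, read 8.77 and 8.86 in the wild-type eI hearts, 9.04 and 8.92 in the mutant eI hearts, 7.53 in the wild-type eM heart and 6.98 in the mutant eM heart. Its difference was -1.64 ± 0.17 (SE) (adjusted p = 0.0131), and all 3 probe sets were lower. F13a1, a transglutaminase of macrophages and platelets, read 7.40 to 8.06 in the 4 eI hearts, 5.89 in the wild-type eM heart and 5.57 in the mutant eM heart, a difference of -1.98 ± 0.19 (SE). Ncf4, a subunit of the phagocyte oxidase, was 3.47-fold lower, and the signalling adaptor Tyrobp 2.29-fold. The complement chain C1qc differed by -1.22, with both eM hearts under the floor of the filter. Both eM hearts were below all eI hearts for each of these genes, as they were for 3230 of all 13572 genes tested. The block left 10 calls, the fit without mutant 1 7 and the fit without wild-type 3 6. At an unadjusted p under 0.05, 11 members were lower without mutant 3.

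**Figure D5:**
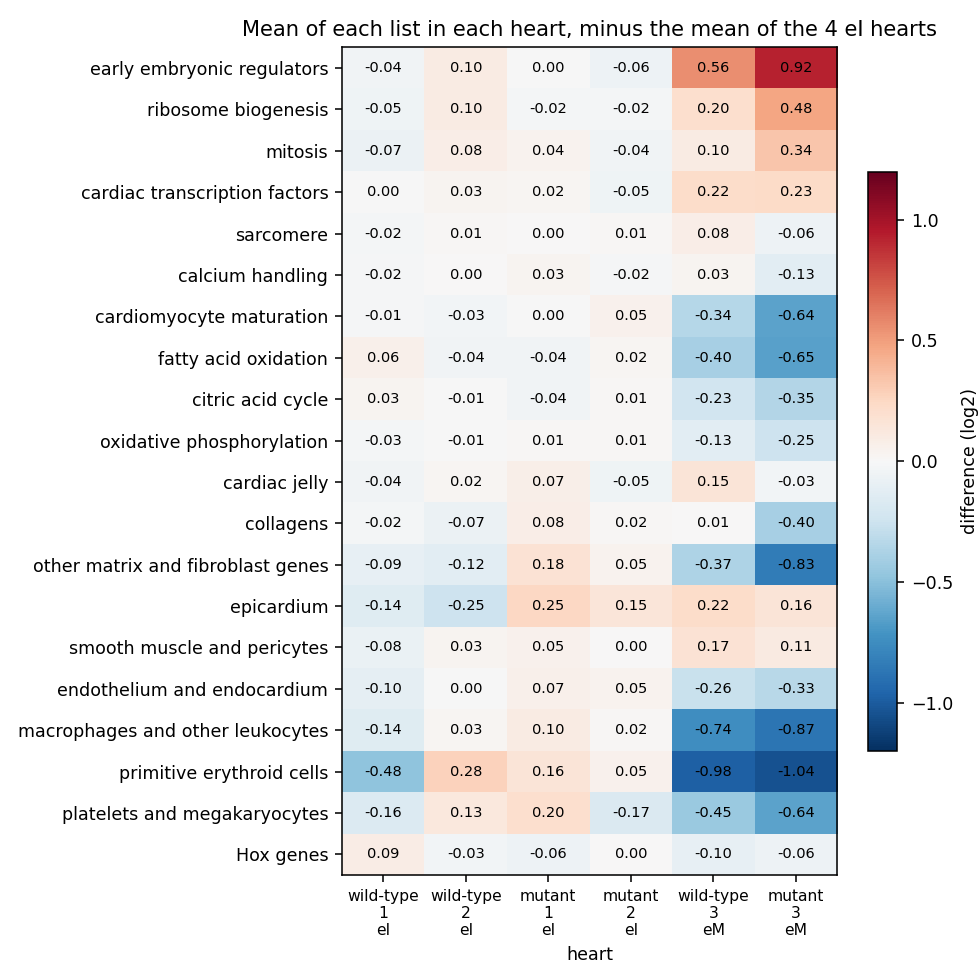
Each cell gives the mean level of the tested genes of a list in 1 heart minus the mean of the 4 eI hearts (log2), with red above and blue below. The primitive erythroid list is lowest in the 2 eM hearts, at -0.98 and -1.04, and wild-type 1 is the lowest eI heart at -0.48, whereas the fatty acid list separates the eM hearts with the eI hearts near 0.

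Afp, the alpha-fetoprotein of yolk sac and fetal liver, had the largest difference of any gene called. Its levels were 7.77 and 11.83 in the wild-type eI hearts, 8.40 and 9.0 in the mutant eI hearts, 3.81 in the wild-type eM heart and 3.03 in the mutant eM heart. Wild-type 2 stood about 3 log2 units above the other eI hearts, and both eM hearts were under the floor of the filter, for a measured difference of -5.83 ± 1.02 (SE) (adjusted p = 0.0269). All 3 probe sets were lower, with differences of -5.83 to -3.02. Of 15 tested markers of liver and yolk sac endoderm, 2 were called lower, Afp and the apolipoprotein Apoc1 (-0.58, adjusted p = 0.0713 with the block), and 0 higher. Named after their values were seen, Apoa1 and Ttr were also highest in wild-type 2, at 9.47 and 9.62, against 6.31 to 6.84 and 7.66 to 7.87 in the other eI hearts. Without wild-type 3 the adjusted p of Afp was 0.123. The list mean was 8.02 in wild-type 2, 6.91 to 7.03 in the other eI hearts, and 6.38 and 6.25 in the eM hearts. The part of yolk sac or liver RNA in the Afp difference was not tested.

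Among secreted signals, the Wnt pathway had 3 of 34 members higher and 4 lower. Wnt2, a ligand of early heart progenitors, read 6.14 and 6.06 in the wild-type eI hearts, 6.71 and 6.79 in the mutant eI hearts, 7.54 in the wild-type eM heart and 8.58 in the mutant eM heart. Its level was above the eI range in both eM hearts, and the mutants were above the wild type within each set of letters, giving a difference of 1.63 ± 0.11 (SE) (adjusted p = 0.0131). Sfrp1, a secreted inhibitor of Wnt, read 11.62 to 12.05 in the 4 eI hearts, 10.23 in the wild-type eM heart and 9.23 in the mutant eM heart, a difference of -2.11 ± 0.27 (SE) (adjusted p = 0.016), and all 5 probe sets were lower. The receptor Fzd3 was 1.5-fold higher. The inhibitor Dkk1 was higher by 0.76, with all eI hearts under the floor of the filter. Without mutant 1 there was 1 call each way, and with the block 3 higher and 2 lower.

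In the BMP and TGF-beta pathway 3 of 38 members (7.89%) were called higher and 2 (5.26%) lower, beside 4.47% and 5.82% of all genes. The ligand Bmp5 read 9.09 to 9.33 in the 4 eI hearts, 9.84 in the wild-type eM heart and 10.06 in the mutant eM heart, a difference of 0.73 ± 0.08 (SE). The receptors Acvr2b and Bmpr1b were 1.72-fold and 1.84-fold higher, whereas the TGF-beta receptor Tgfbr2 was 1.9-fold lower and the latency protein Ltbp3 1.96-fold lower. The block kept the counts at 3 and 2. Without mutant 1 there was 1 call each way, and without wild-type 3 there were 3 higher and 1 lower.

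The Notch pathway had 2 of 24 members higher and 3 lower. The ligand Jag1 was higher by 0.62 and the target Hey1 by 0.70, whereas the target Hes1 was lower, at -0.65, and the ligand Dll1 at -0.45. The last 2 calls were lost with the block, at adjusted p of 0.0543 and 0.0797. Among growth factors and receptors 5 of 33 were higher and 4 lower. The insulin-like growth factor Igf1 read 10.38 to 10.59 in the 4 eI hearts. The wild-type eM heart was at 9.93 and the mutant eM heart at 9.17. The Igf1 difference was -0.93 ± 0.18 (SE) (limma adjusted p = 0.0329, and 0.0531 with the block). Its receptor Igf1r was 1.52-fold higher on the brightest probe set, and all 5 probe sets were higher, by 0.15 to 1.05. The neuregulin receptor Erbb3 was higher by 0.72 (adjusted p = 0.0603 with the block). The block left 1 call each way among growth factors, and 2 higher and 1 lower in the Notch pathway. Without mutant 1 there were 0 calls in either list in limma, with 2 higher and 4 lower Notch genes and 6 higher and 9 lower growth factor genes at an unadjusted p under 0.05.

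The ephrins and Eph receptors, the family to which the mutated gene belongs, had 2 of 16 members higher and 1 lower. These were Efnb3 (0.51), Epha4 (0.67) and Efna4 (-0.37). Efnb3 and Efna4 were not called with the block (adjusted p = 0.0518 and 0.0904). Ephb4 itself read 7.83 and 8.20 in the wild-type eI hearts, 8.14 and 7.93 in the mutant eI hearts, 8.06 in the wild-type eM heart and 8.06 in the mutant eM heart, and Efnb2, its ligand, 9.48 to 10.12 in the 4 eI hearts, 10.31 in the wild-type eM heart and 10.17 in the mutant eM heart; both were named because the series concerns them. Neither was called, with differences of 0.04 ± 0.13 (SE) and 0.31 ± 0.18 (SE). The 95% interval of the difference ran from -0.27 to 0.35 for Ephb4 and from -0.13 to 0.76 for Efnb2.

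Genes of ribosome biogenesis and of mitosis were higher where called, at 17.1% and 13.5% of those tested, beside 4.47% of all genes. Of 35 ribosome biogenesis genes, 6 were called higher and 0 lower, with a median of 0.30. Utp20, a factor of small subunit assembly, read 9.03 to 9.16 in the 4 eI hearts, 9.57 in the wild-type eM heart and 9.79 in the mutant eM heart, a difference of 0.61 ± 0.10 (SE) (adjusted p = 0.0232). The nucleolar proteins Heatr1 (0.74) and Nop58 (0.76) were called too, but not with the block (adjusted p = 0.0561 and 0.0543), which left 1 call. At an unadjusted p under 0.05 in limma, 20 genes were higher in the full fit, beside 4125 of all 13572 genes in either direction. Of 32 cytosolic ribosomal proteins, 1 was called higher (3.12%, under the 4.47% of all genes), Rpl14 at 0.52 (limma adjusted p = 0.0737 with the block).

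Mitosis genes had 5 of 37 called higher and 0 lower, with a median of 0.18. Kif23, the motor of the dividing cell's midbody, read 9.30 to 9.53 in the 4 eI hearts, 9.92 in the wild-type eM heart and 10.20 in the mutant eM heart, a difference of 0.68 ± 0.12 (SE) (adjusted p = 0.0261), and was the 1 call left with the block. The mean of the list was 0.10 above the eI mean in the wild-type eM heart and 0.34 above it in the mutant eM heart, beside 0.08 in wild-type 2 among the eI hearts. DNA replication had 2 of 37 genes higher (5.41%, beside 4.47% of all genes) and 0 lower. These were the polymerases Pola1 (0.55) and Pole (0.48), both lost with the block (limma adjusted p = 0.0515 and 0.0703). Cyclin Ccnd2, a driver of cell cycle entry, read 12.15 to 12.53 in the 4 eI hearts, 13.15 in the wild-type eM heart and 13.52 in the mutant eM heart, with all 7 probe sets higher and a difference of 1.0 ± 0.16 (SE). The inhibitor Cdkn2c had a difference of -0.75. Without mutant 1 there were 0 calls in limma for ribosome biogenesis, mitosis and DNA replication, with 10, 9 and 5 genes higher at an unadjusted p under 0.05.

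With unnamed clone symbols passed over, the gene of smallest p was Kcnq1ot1, a long non-coding RNA expressed from the paternal copy of an imprinted domain, where it silences its neighbours. It read 7.23 and 7.10 in the wild-type eI hearts, 7.32 and 7.01 in the mutant eI hearts, 9.36 in the wild-type eM heart and 9.38 in the mutant eM heart. The eM hearts were level with each other and stood far above the eI hearts, for a difference of 2.20 ± 0.11 (SE), or 4.61-fold (adjusted p = 0.00547). Airn, the silencing RNA of another imprinted domain, read 8.77 to 9.17 in the 4 eI hearts, 10.03 in the wild-type eM heart and 9.84 in the mutant eM heart, a difference of 0.99 ± 0.13 (SE), although 1 of its 3 probe sets differed by -0.20. Igf2r, which Airn overlaps in the antisense direction, was higher by 0.45 (adjusted p = 0.0706 with the block). Which strand each of these probe sets reads was not checked. Of 24 imprinted genes 3 were called higher and 1 lower, the lower being Dlk1 at -0.65. The block left 2 and 1, the fit without wild-type 3 1 and 1, and the fit without mutant 1 2 and 0.

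Other genes of smallest p fell outside the lists. Hsd11b2, which inactivates glucocorticoids, read 7.18 to 7.59 in the 4 eI hearts, 8.75 in the wild-type eM heart and 9.04 in the mutant eM heart, a difference of 1.45 ± 0.11 (SE). Itga4, an integrin chain that binds fibronectin, was 3.59-fold higher on its brightest probe set. Its 2 probe sets were higher by 0.88 and 1.84. Lgals9, a sugar-binding protein of immune regulation, read 8.62 to 8.86 in the 4 eI hearts, 6.93 in the wild-type eM heart and 6.31 in the mutant eM heart, a difference of -2.14 ± 0.17 (SE). Fcgrt, the receptor that protects antibodies from breakdown, was 2.75-fold lower, and Lgmn, a lysosomal protease, 2.15-fold. Upp1, which breaks down uridine, was 2.2-fold lower. The remaining genes of smallest p had differences of 1.39 (Kbtbd8), 1.18 (Prrc2c), 0.89 (Rpgrip1) and 0.92 (Ubn2) among those higher. Among those lower the differences were -1.26 (Abca9, a lipid transporter with both eM hearts under the floor of the filter), -1.33 (Fam174b), -1.65 (Ccdc3) and -0.89 (Mmgt2). Ahnak, a giant scaffold protein, was 2.03-fold higher on its brightest probe set and between -0.20 and 1.02 over 4 probe sets, of which 1 was positive.

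Genes with the largest differences beyond the lists included the peptide hormone Cck, at 4.99 to 5.65 in the 4 eI hearts. The wild-type eM heart read 6.68 and the mutant eM heart 8.11, a difference of 2.15 ± 0.38 (SE) (limma adjusted p = 0.0269). Of the eI hearts, all but wild-type 2 were under the floor of the filter for Cck. Tdo2, which degrades tryptophan, read 4.91 to 5.20 in the 4 eI hearts, 6.39 in the wild-type eM heart and 7.58 in the mutant eM heart, with all eI hearts under the floor of the filter and a measured difference of 1.93. The microtubule protein Map1b was 3.88-fold higher, although its other probe set differed by 0.18. Pxylp1, which acts on the linker sugars of proteoglycans, was 3.65-fold higher on its brightest probe set. Its 2 probe sets were higher by 1.60 and 1.87. Gtsf1, a factor of small RNA silencing in germ cells, read 11.77 and 11.88 in the wild-type eI hearts, 11.90 and 11.90 in the mutant eI hearts, 9.95 in the wild-type eM heart and 8.14 in the mutant eM heart. The eI hearts were nearly level and both eM hearts far below, for a difference of -2.82 ± 0.39 (SE), 7.07-fold lower, with -0.55 on the dimmer probe set. Car2, a carbonic anhydrase abundant in red cells, was 5.85-fold lower.

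Lists of positional and other cell identities had few calls. Of 16 Hox genes and cofactors 0 were called in limma, with 2 higher and 1 lower at an unadjusted p under 0.05. Second heart field genes had 2 of 16 higher, Tbx5 and Tbx18, and both calls were lost with the block (adjusted p = 0.0659 and 0.061). Neural lineages had 2 of 19 higher and 1 lower, the endothelin receptor Ednrb at -0.81, and 1 each with the block. Lung and foregut epithelium had 2 of 18 lower, led by the protease inhibitor Spint2 at 9.37 to 10.01 in the 4 eI hearts, 8.48 in the wild-type eM heart and 8.19 in the mutant eM heart, a difference of -1.47 ± 0.19 (SE), and 1 lower with the block. Skeletal muscle genes had 4 of 10 higher and 1 lower, of which Ttn and Des (adjusted p = 0.0773 with the block) are also in the sarcomere list, and the block left 3 higher and 0 lower. Retinoic acid genes had 1 higher and 1 lower of 19, hypoxia targets 1 and 2 of 20, stress response genes 1 and 1 of 25, and immediate early genes 0 and 2 of 25. With the block these counts were 1 and 0, 0 and 1, 0 and 0, and 0 and 0 in limma, and at an unadjusted p under 0.05 with the block 2 stress response genes were higher and 3 lower and 2 immediate early genes higher and 5 lower.

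The direction of the called genes did not depend on the choice of probe set for most of them. Of 664 called genes with 2 or more tested probe sets, 529 had all of them on 1 side. Of the called genes named above, Fbln1 (-0.17), Ndufa12 (0.10), Fzd3 (-0.10) and Jag1 (-0.06) also had 1 probe set with a difference of the opposite sign. In the fit on every probe set, 3160 of 27022 were called, 1825 higher and 1335 lower, and 561 of the called probe sets name no gene in the table used here. The gene and probe set counts thus differ in which direction is the more common.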

How the data were processed

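RNA of 6 mouse hearts was read on Affymetrix Mouse430_2 arrays. The deposited values are log2 intensities that the authors computed by the RMA method, as the submitters' processing notes state without a version. They ran from 2.42 to 14.79 over 45101 probe sets; no scanner files were used here, so background levels are unknown, and the number of arrays limits the precision. The 64 AFFX control probe sets were left out of all tests. Probe sets naming 1 gene (34945) were named through the platform annotation and RefSeq GRCm38.p6, which matched 34741 of their gene IDs. The dimmest 40% of probe sets by mean level, under 5.38, were left out, and each gene was read by its brightest remaining probe set, which gave 13572 genes.

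Differences were fitted with limma 3.58.1 in R 4.3.3 on all 6 hearts, with letters and genotype as terms, and p-values were adjusted over all genes by the Benjamini-Hochberg method, two-sided, at 0.05. Errors are standard errors of this fit. The fit was tested on simulated data. Lists are described by counts and medians, without a test. Members and lists were chosen with earlier results of these data known. The text names the 10 genes of smallest p and the 8 of largest difference in each direction, among called genes with 1 direction in both genotypes, and up to 5 members of smallest p from each list; others are said to be chosen after their values were seen.

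Replicate numbers from the sample titles were checked for pairing. Deviations from the genotype means correlated by 0.18, 0.36 and 0.74 for hearts numbered 1, 2 and 3, all above 0.1. Hearts 1 and 2 of unlike number correlated by 0.49 and 0.47, more than those of like number. Both eM hearts are numbered 3, and the deviations still hold the difference between the letters. The correlations therefore cannot show pairing by number. The replicate block is given beside the lists and named genes whose calls it changes. Alternatives covered filters, normalization, probe set choice, weights, covariates, the replicate block and leaving out each heart.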

Additional observations from a re-analysis of the deposited data

Results flagged for a closer look

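In 19 of the 187 genes checked and 1 of the 45 list means, 1 of the 4 eI hearts stood apart from the other 3 by Dixon's criterion, where chance alone flags about 1 in 20 groups. Wild-type 1 was such a heart in 9 cases, wild-type 2 in 8, mutant 1 in 1 and mutant 2 in 2.

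Wild-type 1 was low for 2 genes of red cells, Alas2 at 7.99 against 9.05 to 9.22 and Hbb-y at 14.07 against 14.40 to 14.45, the same direction as the eM hearts. It was also low for the cardiac actin Actc1 at 14.40, the ligand Efnb2 at 9.48 against 10.03 to 10.12, Ndufa12 at 13.22, Gtsf1 at 11.77 and Pxylp1 at 7.21, and high for Prtg at 8.36 and Cited1 at 13.64.

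Wild-type 2 was high for genes of liver and yolk sac: Apoa1 at 9.47 against 6.31 to 6.84, Ttr at 9.62 against 7.66 to 7.87, and the mean of the endoderm list at 8.02 against 6.91 to 7.03. It was low for the antigen-presenting gene H2-D1 at 9.0 against 10.11 to 10.25, for Cav1 at 9.25 against 9.83 to 9.91 and for Myh6 at 13, and high for Mycn at 10.47 and the protease Ctsh at 8.78. Mutant 1 was high for Vcan at 12.01 against 11.77 to 11.79. Mutant 2 was low for Map1b at 5.82 against 6.56 to 6.61 and high for Abca9 at 6.25 against 5.99 to 6.03.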

How the results depend on the processing

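Against 1397 genes called, 231 of them at 2-fold or more, and 3160 probe sets called, a threshold of 0.01 gave 2, 2 and 607. A threshold of 0.1 gave 2745 genes and 5343 probe sets, and no filter gave 878 genes. With the replicate block 575 genes were called. With the Xist level as a covariate the 3 counts were 183, 112 and 1114. Reading each gene by its probe set of largest variance gave 456 genes at 2-fold or more. Leaving out 1 heart gave 0 to 1937 genes, 0 to 347 at 2-fold or more and 1 to 4333 probe sets, lowest without mutant 3. The cause of these changes was not tested, beyond the smaller number of hearts or genes in a setting. The count for the interaction with genotype was 0 in each setting run. No called gene named in the report turned its direction. Genes not called and near 0 did: Ephb4 was 0.00 with quantile normalization and -0.04 to 0.11 on leaving out 1 heart, Efnb2 was -0.03 with the mean of its probe sets, and Tnnt2 was 0.06 with that mean and 0.45 with its probe set of largest variance. On leaving out 1 heart Actc1 was -0.01 to 0.10, Myh7 -0.09 to 0.02 and Nkx2-5 -0.18 to 0.27, and among wild-type hearts alone Myh7 was 0.02 and Nkx2-5 -0.18. The eM group holds 1 heart per genotype, so a fit that leaves one out assumes that the other varies like the eI hearts. Levels under the floor of the filter, as for Afp and Lin28a, have no measured background beside them.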

Other observations

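Gene groups outside the lists above, written down after the values were seen and so described without a test of the group, also differed between the letters. Of 28 genes of interferon response and antigen presentation, 12 were called lower and 0 higher, with a median of -0.50. H2-K1, a class I molecule that presents peptides to T cells, read 9.41 and 9.18 in the wild-type eI hearts, 9.43 and 9.52 in the mutant eI hearts, 8.02 in the wild-type eM heart and 7.69 in the mutant eM heart, a difference of -1.53 ± 0.14 (SE) (limma adjusted p = 0.0131). Irgm2, a GTPase induced by interferon, was 2.2-fold lower and the membrane protein Ifitm3 2.06-fold lower. Of 33 lysosomal enzymes, 12 were called lower and 0 higher, with a median of -0.28, among them the cathepsins Ctss, at 6.43 to 7.36 in the 4 eI hearts, 4.69 in the wild-type eM heart and 5.62 in the mutant eM heart, and Ctsh, with a difference of -1.16. The list means of both groups were lower in the eM hearts than in every eI heart, at 7.20 and 6.98 against 7.63 to 7.74 for interferon genes and 9.18 and 8.98 against 9.32 to 9.51 for lysosomal enzymes. Macrophage genes moved with them, as described in the report, and their part in these differences was not tested.

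Of 50 chromatin regulators, 19 were called higher and 0 lower, with a median of 0.29. They include the histone methyltransferases Kmt2a (0.97) and Kmt2d (0.91, with its other probe set at -0.18), the acetyltransferase Ep300 (0.72), the remodeller Chd7 (0.86), the histone chaperone Hira (0.80) and the bromodomain protein Brwd3 (0.98). The share of all genes called higher rose with span in the report, and the part of span in these differences was not tested. Of 30 genes of fatty acid and cholesterol synthesis, 6 were called higher and 0 lower, with a median of 0.20. The fatty acid synthase Fasn read 9.29 and 9.37 in the wild-type eI hearts, 9.35 and 9.34 in the mutant eI hearts, 10.14 in the wild-type eM heart and 10.39 in the mutant eM heart, a difference of 0.93 ± 0.09 (SE) (limma adjusted p = 0.0131), and the desaturase Scd1 5.84 to 6.26 in the 4 eI hearts, 7.22 in the wild-type eM heart and 7.30 in the mutant eM heart, a difference of 1.19 ± 0.13 (SE). The elongase Elovl6 was 1.49-fold higher and Sqle, which makes a precursor of cholesterol, 1.5-fold. Fatty acid synthesis and fatty acid oxidation thus had their called genes on opposite sides.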
